A study of Homo sapiens with 10 samples.

Results

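SMAD2, SMAD3 and MMP1 are 3 genes of the TGF-β and collagen axis, and their mRNA was measured in human HEK293T cells treated with bacterial extracellular vesicles (bEVs). They were chosen by gene symbol, with earlier results of these data known, and make up 3 of the 14884 genes that could be named. HEK293T cells derive from human embryonic kidney and express SV40 large T antigen. It was profiled on 10 Affymetrix Human Gene 2.0 ST arrays. Of these, 8 came from cells given the bEV of 1 strain each for 6 h, and 2 came from control cells. The strains were L. rhamnosus, L. fermentum, L. acidophilus, S. thermophilus, L. plantarum, L. paracasei, L. salivarius and Lc. lactis (spelled Lc. lactics in the labels). Both controls are labelled only as HEK293T control 1 and control 2. Whether a vehicle was added to them is not given in the labels.

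The dose of each bEV was its maximum tolerated dose (MTD) in these cells. The doses thus differ between strains, and strain and dose cannot be told apart. The methods state that triplicate RNA was pooled into 1 composite sample, so that there is 1 array per bEV and no measure of how cultures of the same bEV vary. Nothing says that the controls came from separate cultures, and p-values therefore measure only the spread between these arrays, which may be technical. Several sample titles number the cell line upward from HEK294T, while the cell line field gives HEK293T throughout. The treatment entry of each bEV sample names its bEV, while the shared treatment protocol text names another agent, Pk2, and no bEV. No array tested TGF-β itself, and no array was made from fibroblasts, the main collagen-producing cells.

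TGF-β is secreted in a latent form, and once released it binds a pair of receptor kinases at the cell surface. These phosphorylate SMAD2 and SMAD3, which then bind SMAD4, move to the nucleus and act on target genes, among them genes for fibrillar collagens. MMP1 is interstitial collagenase, a secreted protease that cuts intact fibrillar collagen, and TGF-β is known to restrain its transcription in fibroblasts. SMAD2 and SMAD3 are controlled mainly by phosphorylation, which an mRNA array does not measure. Values are log2 signals per probe set, so that a difference of 1 is a doubling. They are compared between arrays for 1 gene at a time. A level set beside the median gene says only how dim a probe set was, and a difference of 2 genes within an array is compared only with the same difference in other arrays.

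All arrays were similar over the whole array. Pearson's r across 53617 probe sets was 0.9818 to 0.986 between bEV arrays, 0.9775 to 0.9818 between bEV arrays and control 1, 0.9811 to 0.984 between bEV arrays and control 2, and 0.9812 between the controls. Of the markers fixed for this line, KRT18 had a mean log2 signal of 7.54 and VIM of 7.89, while KRT8 was dim at 4.10 and lower with bEVs by 0.33 on the log2 scale (adjusted p = 0.435, limma). CDH2 was not analysed here. The fibroblast proteoglycans DCN and LUM averaged 1.83 and 2.31, against a median of 4.63 over all genes. THY1, another fibroblast marker, averaged 4.13 and was lower with bEVs by 0.44 on the log2 scale (adjusted p = 0.341, limma). Its 8 bEV arrays were all below both controls, as is so for 4.07% of all genes. The other fibroblast markers fixed beforehand, COL1A1, COL1A2, COL3A1, POSTN, PDGFRA, PDGFRB and FAP, were not analysed here. The part of KRT8 and THY1 in the values below was not tested.

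SMAD2 mRNA was higher with every bEV, SMAD3 mRNA scattered around the controls, and MMP1 mRNA was dim and went in either direction. SMAD2 was 1.32-fold higher over the 8 bEV arrays (95% interval 1.14 to 1.53). All 8 lay above both controls, as they did for 5.11% of all genes and 8.37% of those at or above the median signal. SMAD3 was 1.04-fold (0.89 to 1.22) and MMP1 0.95-fold (0.73 to 1.24) of the control level. None of the 3 genes passed limma's test after adjustment over 14884 genes, and none reached the 1.5-fold cutoff of the methods with any bEV.

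SMAD2 lies on chromosome 18 (Entrez ID 4087) and has 1 named probe set. It encodes the receptor-regulated SMAD that, in its main form, does not bind DNA directly and depends on partners to do so. Its log2 signal was 7.97 with the bEV from L. rhamnosus, 7.88 with L. fermentum, 7.73 with L. acidophilus, 7.96 with S. thermophilus, 7.87 with L. plantarum, 7.83 with L. paracasei, 7.80 with L. salivarius and 7.97 with Lc. lactis, against 7.56 in control 1 and 7.39 in control 2. The 8 bEV arrays lay within 7.73 to 7.97, all above the higher control. The bEV from L. acidophilus was nearest to the controls, and those from L. rhamnosus, Lc. lactis and S. thermophilus were farthest.

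**Figure D1:**
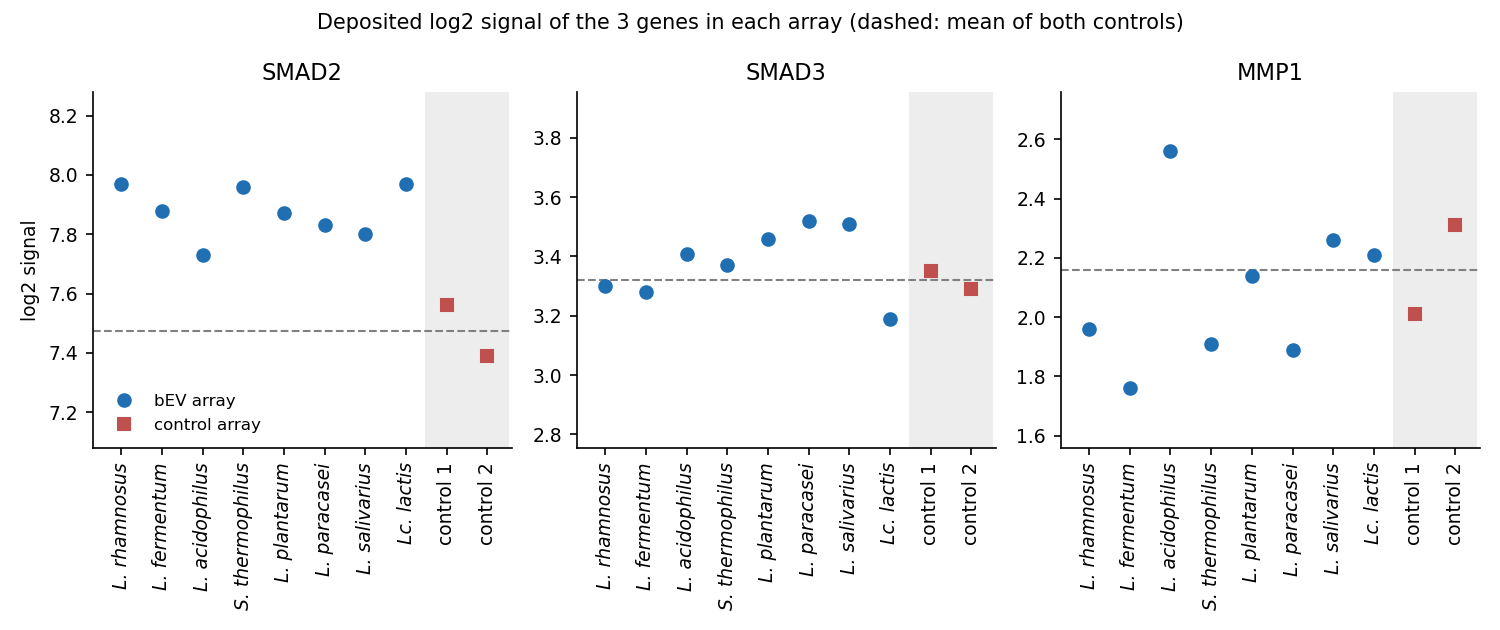
Log2 signal (y axis) of SMAD2, SMAD3 and MMP1 in each of the 10 arrays (x axis), 1 point per array with no error bars, since each bEV has 1 array. Blue circles are bEV arrays, red squares in the shaded area are controls, and the dashed line is the mean of both controls. The 3 y axes have the same height but different levels. All 8 SMAD2 circles, from 7.73 to 7.97, lie above both controls, as is so for 5.11% of all genes. The circles of SMAD3 and MMP1 lie on both sides of their controls.

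Relative to the control mean, the log2 fold change for SMAD2 came to 0.50 with L. rhamnosus, 0.41 with L. fermentum, 0.25 with L. acidophilus, 0.49 with S. thermophilus, 0.40 with L. plantarum, 0.36 with L. paracasei, 0.33 with L. salivarius and 0.49 with Lc. lactis. All 8 share the same 2 controls, so these are not 8 independent observations of a difference. The controls themselves differed by 0.17, which is less than each of the 8 changes. Set against control 1 alone, the changes ran from 0.17 to 0.42, and against control 2 alone from 0.33 to 0.58.

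Together the bEV arrays averaged 7.88 ± 0.09 (SD, n = 8), against a control mean of 7.47 (7.39 and 7.56, n = 2). The difference was 0.40 on the log2 scale (SE 0.10, 95% interval 0.19 to 0.62). limma gave an unadjusted p of 0.00137 and an adjusted p of 0.288. An exact permutation test over the 45 ways to choose 2 of 10 arrays gave a two-sided p of 0.022, the smallest that this design allows. By limma's unadjusted p, 63 of 14884 genes were at or below SMAD2, and 1682 (11.3%) were under 0.05, while 0 genes (0%) had an adjusted p under 0.05. Without control 1 the difference was 0.49, and without control 2 it was 0.32. With either control left out the exact test has 9 splits and cannot go below 0.11.

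A lack of overlap between the 8 bEV arrays and both controls was not rare. Of all genes, 5.11% had all 8 bEV arrays above both controls, and 4.07% had all 8 below both. Among 7442 genes with a signal at or above the median, to which SMAD2 belongs, 8.37% had all 8 above. The share also moved with the genomic span of a gene. With genes split into 4 equal groups by span, it was 1.93% in the group with the shortest spans, 3.04% in the second, 5.70% in the third and 9.78% in the group with the longest, where both SMAD2 and SMAD3 lie. Genes with all 8 bEV arrays below both controls made up 4.94%, 5.43%, 3.57% and 2.34% of these groups, shortest to longest. The part of gene span in the SMAD2 difference was not tested.

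**Figure D2:**
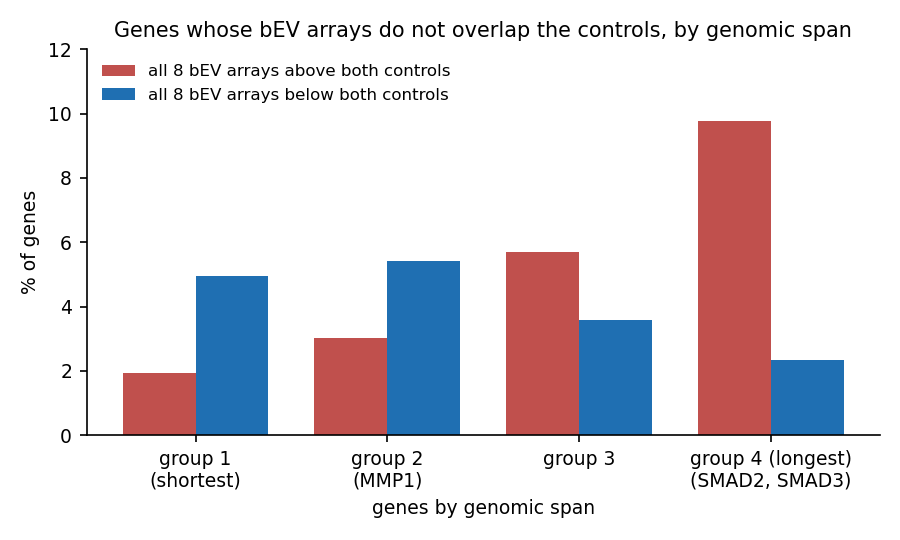
Share of genes (y axis, %) whose 8 bEV arrays all lie above both controls (red) or all below both (blue), in 4 equal groups of genes by genomic span (x axis, shortest to longest). Each group has 3721 genes, and the bars carry no error. The red share is 1.93% in the shortest and 9.78% in the longest group, which holds SMAD2 and SMAD3, and MMP1 lies in the second group.

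Taken 1 bEV at a time, the fit has 1 residual degree of freedom and assumes that the lone bEV array varies like the controls. The smallest unadjusted p for SMAD2 was 0.0418, with L. rhamnosus. Adjusted p-values for SMAD2 ran from 0.588 to 1 in limma. The 95% interval of each single difference was 0.47 wide on either side, so that differences in SMAD2 between bEVs, whose arrays all lay within 7.73 to 7.97, could not be resolved.

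SMAD3 lies on chromosome 15 (Entrez ID 4088) and also has 1 named probe set. It encodes the receptor-regulated SMAD that binds DNA directly and carries much of the collagen response to TGF-β in fibroblasts. Its log2 signal was 3.30 with the bEV from L. rhamnosus, 3.28 with L. fermentum, 3.41 with L. acidophilus, 3.37 with S. thermophilus, 3.46 with L. plantarum, 3.52 with L. paracasei, 3.51 with L. salivarius and 3.19 with Lc. lactis, against 3.35 in control 1 and 3.29 in control 2. The groups overlapped: 5 bEV arrays were above both controls, 2 were below both and 1 was between them. The highest values came with L. paracasei and L. salivarius and the lowest with Lc. lactis.

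The fold changes of SMAD3 over the mean of both controls ran from -0.13 with Lc. lactis to 0.20 with L. paracasei on the log2 scale. The bEV arrays averaged 3.38 ± 0.12 (SD, n = 8), against 3.32 in the controls (3.29 and 3.35, n = 2). The difference of 0.06 (SE 0.11, 95% interval -0.17 to 0.29) had an adjusted p of 0.88 in limma and a two-sided exact permutation p of 0.47. The interval leaves room for a change of 0.29, and the probe set was dim, at the 31.6th percentile of genes by mean signal. A difference in SMAD3 was thus not detected here, which does not show that its level was equal.

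In these arrays the change of SMAD2 was larger than that of SMAD3, whose probe set was dim, but a difference between them is not established. Within each array, SMAD2 minus SMAD3 averaged 4.50 ± 0.19 with bEVs (SD, n = 8), against 4.16 in the controls (n = 2), and was above both controls in all 8 bEV arrays. The difference of 0.34 had a two-sided exact permutation p of 0.044. It was 1 of 4 such differences computed, was added after the values were seen, and is not adjusted. How often a difference of 2 genes separates all 8 bEV arrays from both controls was not counted. After quantile normalization it was 0.31, with an exact p of 0.089. The exact p was also above 0.05 without L. rhamnosus, L. fermentum, S. thermophilus, L. plantarum or Lc. lactis (0.056 to 0.083), and without control 1 (0.11) or control 2 (0.22), where the test cannot pass. Of the other differences, SMAD2 minus MMP1 was higher with bEVs by 0.48 (exact p = 0.089) and SMAD3 minus MMP1 by 0.13 (exact p = 0.64), and SMAD2 minus SMAD4 is given with SMAD4.

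MMP1 lies on chromosome 11 (Entrez ID 4312), again with 1 named probe set. Its log2 signal was 1.96 with the bEV from L. rhamnosus, 1.76 with L. fermentum, 2.56 with L. acidophilus, 1.91 with S. thermophilus, 2.14 with L. plantarum, 1.89 with L. paracasei, 2.26 with L. salivarius and 2.21 with Lc. lactis, against 2.01 in control 1 and 2.31 in control 2. The controls differed by 0.31, and the bEV arrays fell on every side of them. Only L. acidophilus was above both, 4 bEVs (L. rhamnosus, L. fermentum, S. thermophilus and L. paracasei) were below both, and 3 were between them.

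Relative to the control mean, MMP1 ranged between -0.40 with L. fermentum and 0.40 with L. acidophilus on the log2 scale. The bEV arrays averaged 2.09 ± 0.26 (SD, n = 8), against 2.16 in the controls (2.01 and 2.31, n = 2). The difference of -0.07 (SE 0.18, 95% interval -0.45 to 0.31) had an adjusted p of 0.913 in limma and a two-sided exact permutation p of 0.69. Its direction depended on the control, being -0.23 without control 1 and 0.08 without control 2. Neither a fall nor a rise of its mean mRNA was detected, and the interval leaves room for a change from -0.45 to 0.31. MMP1 was at the 7.8th percentile of genes by mean signal, where a fall is hard to see.

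**Figure D3:**
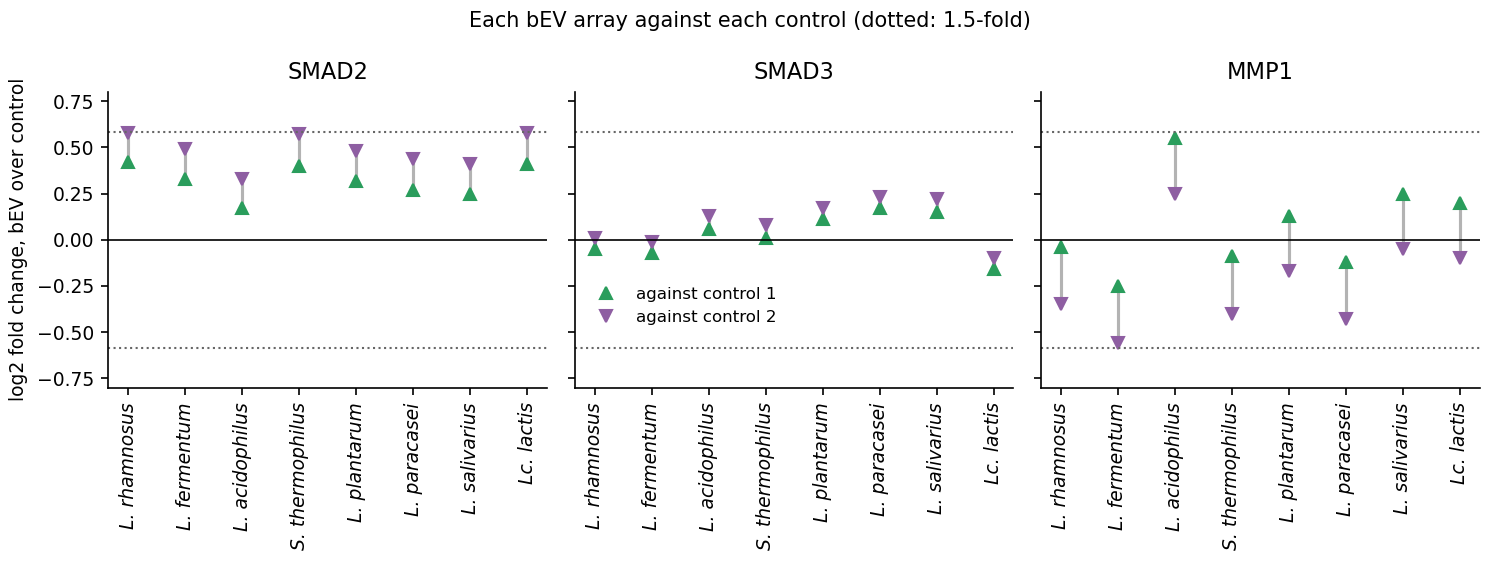
Log2 fold change (y axis) of each bEV array (x axis) over control 1 (green) and over control 2 (purple) for SMAD2, SMAD3 and MMP1, with a grey line joining both values of a bEV and dotted lines at 1.5-fold. All SMAD2 points lie above 0, from 0.17 to 0.58, and no point of any gene passes a dotted line. For MMP1 the sign of 3 bEVs changes with the control.

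At the 1.5-fold cutoff, 0 of the 24 pairs of a gene and a bEV passed against the mean of both controls. The same count was 0 against control 1 alone and 0 against control 2 alone. The nearest were SMAD2 with L. rhamnosus and with Lc. lactis against control 2, each at 0.58 on the log2 scale and just under the cutoff. Over all genes, 4.64% passed with L. rhamnosus, 3.46% with L. fermentum, 3.56% with L. acidophilus, 3.77% with S. thermophilus, 5.15% with L. plantarum, 4.66% with L. paracasei, 2.94% with L. salivarius and 3.49% with Lc. lactis. The controls differed by as much from each other in 5.44% of genes. That share sets 1 array against 1 array, while those of the bEVs set 1 array against a mean of 2, so they are not like for like.

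The study reported more collagen with every bEV in mouse fibroblasts. It took 4 of them further in its collagen experiments, those from S. thermophilus, L. acidophilus, L. fermentum and L. rhamnosus. The bEVs not taken further are thus not a group without a collagen effect. In human hepatic stellate cells it reported more phosphorylated SMAD3 and less MMP1 protein with each of these 4. For MMP1 it gave p-values only with L. rhamnosus and L. fermentum. Those are protein readouts in other cells, while the values below are mRNA in HEK293T cells after 6 h. With these 4, the log2 fold change of SMAD2 ran from 0.25 to 0.50, against 0.33 to 0.49 with the other 4. For SMAD3 the ranges were -0.04 to 0.09 with these 4 and -0.13 to 0.20 with the other 4. MMP1 ran from -0.40 to 0.40 with these 4 and from -0.27 to 0.10 with the other 4. The ranges overlapped for each gene, and no test was made, since the 4 were chosen by the study.

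The genes around SMAD2 and SMAD3 were read from 13 lists set by name, with earlier results of these data known. Counts and medians over the lists are therefore descriptions that are not independent of these data. No gene of the lists passed limma's adjusted threshold, and the median change is set beside 0.00 over all genes. Of 108 genes in the lists, 37 changed sign with the scaling or with a control left out. Upstream, 6 of 13 listed ligands and antagonists and 2 of 9 listed receptors were measured. TGFB1, TGFB2, TGFB3, TGFBR1, TGFBR2 and TGFBR3 were not analysed here. Of 6 other ligands and antagonists the median log2 fold change was -0.11, with NODAL at 0.20 (0.07 without control 2) and MSTN (myostatin) at -0.28 as the ends. Of 9 genes for latent TGF-β binding and activation it was 0.02, with 0.22 for THBS1, which releases active TGF-β, as the highest. The receptor ACVRL1 was at -0.07 (-0.28 without control 1 and 0.13 without control 2) and the co-receptor ENG at -0.11 (-0.19 and -0.03). In these 3 groups 0 genes had their bEV arrays entirely above or entirely below the controls, against 5.11% and 4.07% of all genes. With so few genes, a count of 0 is close to these shares.

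Of the 6 other SMADs the median was 0.03. SMAD4, the shared partner, had log2 signals of 8.04 to 8.22 (median 8.08) with bEVs, against 8.11 in control 1 and 8.13 in control 2, a difference of -0.03 (adjusted p = 0.941, limma). Of its bEV arrays, 7 were just below both controls and that of Lc. lactis was above both. SMAD2 minus SMAD4 within each array was -0.21 ± 0.08 with bEVs (SD, n = 8), against -0.64 in the controls, a difference of 0.43 with a two-sided exact permutation p of 0.022. The inhibitory SMAD7 was at 0.15, with -0.02 without control 1 and 0.31 without control 2. The inhibitory SMAD6 was at -0.23, lower than both controls in 7 bEV arrays (adjusted p = 0.451, limma), and at -0.12 without control 2. SMAD9, of the BMP branch, was at 0.24, and at 0.15 without control 2.

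The negative regulators of SMAD signalling had the highest median of the lists, 0.23 over 7 measured genes of 13 listed. Of these 7, 3 were above both controls in all 8 bEV arrays, against 5.11% of all genes and 8.37% of those at or above the median signal. The share was 9.78% in the group of genes with the longest spans. Of the 7, 0 were below both in all 8, against 4.07% of all genes. The 3 were WWP1, SMURF2 and SMURF1, all ubiquitin ligases. WWP1, a ligase that targets TGF-β receptors and SMAD2, was at 6.96 to 7.25 (median 7.14) with bEVs, against 6.79 and 6.54 in the controls, a difference of 0.44 (adjusted p = 0.288, limma). SMURF2, which marks receptors and SMADs for degradation, was at 7.88 to 8.17 with bEVs, against 7.83 and 7.65 in the controls, a difference of 0.32 (adjusted p = 0.341). SMURF1 was at 6.63 to 6.89 with bEVs, against 6.46 and 6.60 in the controls, a difference of 0.26 (adjusted p = 0.364). BAMBI, a decoy receptor that blocks TGF-β signalling, went the other way, at -0.32, and was below both controls in 7 bEV arrays (adjusted p = 0.381). The SMAD corepressors SKI and SKIL were at 0.15 (0.09 without control 1) and 0.23.

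Among 11 anchors and nuclear partners of the SMADs the median was 0.15. Of these, 4 had all 8 bEV arrays above both controls, against the same 5.11%, 8.37% and 9.78%. The 4 were the histone acetyltransferases CREBBP (0.31, adjusted p = 0.341, limma) and EP300 (0.20, adjusted p = 0.469), which act as SMAD coactivators, TRIM33 (0.26, adjusted p = 0.398, and 0.10 without control 2), which binds SMAD2 and SMAD3, and the endosomal protein HGS (0.15, adjusted p = 0.584). RBL1 (p107), a SMAD3 partner at the MYC promoter, was at 0.47 (0.30 without control 2) and above both controls in 7 bEV arrays. None of the 11 was below both controls in all 8 arrays, against 4.07% of all genes. Without control 2 the median of these partners was 0.10. The coactivators and ligases had, like SMAD2, a mean signal no lower than that of the median gene.

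**Figure D4:**
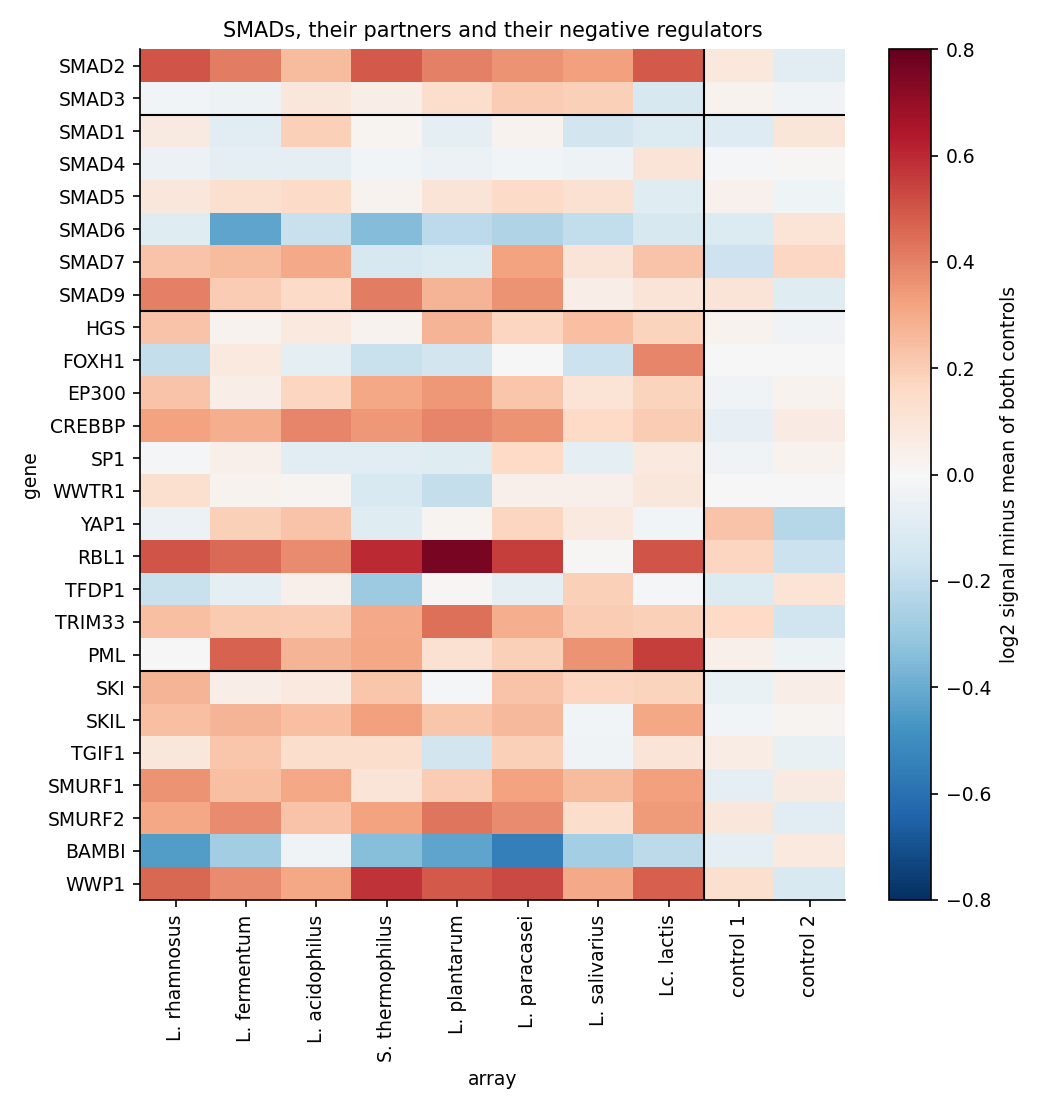
Log2 signal minus the mean of both controls (colour, red higher and blue lower, scale from -0.8 to 0.8) for SMAD2, SMAD3, the 6 other SMADs, 11 partners and 7 negative regulators (rows), in each bEV array and both controls (columns). SMAD2, WWP1, SMURF1, SMURF2, CREBBP, EP300, TRIM33 and HGS are above 0 in all 8 bEV columns, from nearly white (HGS at 0.03) to red. SMAD3 and SMAD4 are pale on both sides of 0. BAMBI and SMAD6 are blue, except that BAMBI is nearly white with L. acidophilus (-0.03).

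Downstream, the 12 measured TGF-β target genes had a median of 0.03, or 0.14 over those at or above the median signal. None had all bEV arrays above or below both controls, against 5.11% and 4.07% of all genes. In 12 genes such a count is close to these shares. PMEPA1, ID1, ID2 and ID3 were not analysed here. CCN2 (CTGF), a matricellular protein induced by TGF-β and by YAP1, had its highest value with L. rhamnosus, at 6.93, against 5.47 in control 1 and 6.09 in control 2. Its bEV arrays ran from 5.84 to 6.93 with a median of 5.99, so that 3 were above both controls and 5 between them. Relative to the control mean, CCN2 stood at a log2 fold change of 1.15 with L. rhamnosus and averaged 0.36 over the 8 bEVs (adjusted p = 0.617, limma). That average was 0.05 without control 1 and 0.67 without control 2. FN1 (fibronectin) was at 0.20.

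The fibrillar collagens COL1A1, COL1A2 and COL3A1 and the collagen chaperone SERPINH1 were not analysed here, and the only collagen named was COL26A1, at -0.14 (-0.08 without control 2). Over 20 genes of collagen synthesis and processing the median was -0.06. Of these, 2 were above both controls with all 8 bEVs and 2 below both, against 5.11% and 4.07% of all genes. KLHL12 (0.28) and SEC23A (0.23), which act in the export of procollagen from the endoplasmic reticulum, were the ones above. P3H4 (-0.28, and -0.16 without control 1), of the complex that modifies collagen lysines, and PCOLCE2 (-0.26), which enhances procollagen cleavage, were the ones below. LOX, which cross-links collagen, was at 0.35 (0.23 without control 1) and ran from 5.02 to 5.73 with bEVs, against 4.88 and 5.11 in the controls.

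MMP1 lies in a run of 9 metalloproteinase genes on chromosome 11, of which MMP7 and MMP3 were not analysed here. The other 6 of the run, MMP20, MMP27, MMP8, MMP10, MMP12 and MMP13, had mean log2 signals of 1.93 to 2.51, dim beside the median gene at 4.63, as MMP1 was. Their fold changes ran from -0.17 for MMP12 to 0.21 for MMP13 on the log2 scale, and that of MMP12 was -0.34 without control 1 and 0.01 without control 2. MMP13 and MMP8, the other collagenases of the run, and MMP12 were highest with L. acidophilus, as was MMP1. MMP20 was highest with S. thermophilus, MMP27 with L. rhamnosus and MMP10 with L. paracasei. Each of these is 1 array of a dim probe set. Over all 19 other metalloproteinases the median was 0.06, and -0.01 without control 2. Of these, 0 had bEV arrays entirely above or entirely below the controls, against 5.11% and 4.07% of all genes. In 19 genes such a count is close to these shares. MMP15 was the lowest, at -0.31. MMP23A (-0.13) and MMP23B (0.23, and -0.06 without control 2) are near-identical copies whose probes may not tell them apart.

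The lists that bear on MMP1 from outside were mixed. Of 5 metalloproteinase inhibitors the median was -0.22. TIMP4 had log2 signals of 2.11 to 2.40 (median 2.30) with bEVs, against 2.95 in control 1 and 2.84 in control 2. All 8 bEV arrays were below both, as they were for 4.07% of all genes. The difference was -0.61 (SE 0.10, unadjusted p = 3.13e-05, adjusted p = 0.288, limma), at a signal far below the median gene. RECK, a membrane-anchored inhibitor, was at -0.33 and below both controls in 7 bEV arrays. TIMP1, the main inhibitor of MMP1, was at -0.10, with 0.08 without control 1 and -0.29 without control 2. TIMP3, the brightest of the 5 with a mean signal of 8.03, was at 0.10 (0.23 without control 1 and -0.02 without control 2).

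The AP-1 and ETS factors drive MMP1 transcription in many cells, and their median was 0.07 over 10 measured genes. ATF3 was the highest at 0.54, with signals of 5.29 to 6.52 with bEVs, against 5.30 and 5.43 in the controls (adjusted p = 0.512, limma). FOS was the lowest at -0.34, with 3.72 to 4.84 with bEVs, against 4.74 and 4.12 in the controls, so that the groups overlapped, and its difference was -0.03 without control 1. With L. acidophilus, the bEV with the highest MMP1, FOS, FOSB and FOSL1 had their highest values and FOSL2 its lowest. ATF3 was at -0.04 there on the log2 scale. JUN and JUND were highest with L. rhamnosus and JUNB with L. salivarius. Each of these values is from 1 array, and a link of these factors to MMP1 was not tested. JUN was at 0.16. Of 4 receptors for collagen or MMP1, the collagen receptor DDR2 was at 0.41 and the other 3 were between -0.09 and -0.04.

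**Figure D5:**
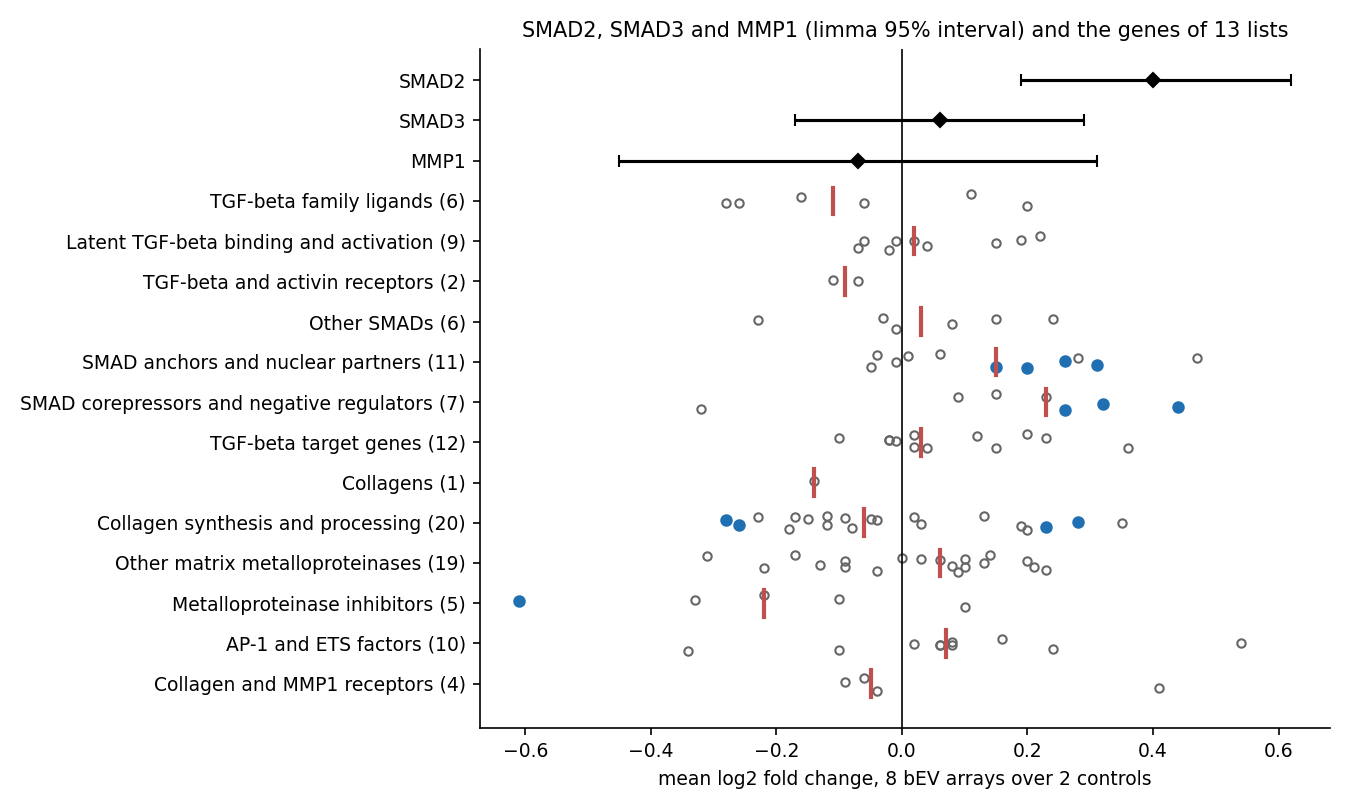
Mean log2 fold change over the 8 bEV arrays against both controls (x axis) for SMAD2, SMAD3 and MMP1 (diamonds with limma's 95% interval) and for each measured gene of 13 lists (circles, number of genes in brackets). Filled circles are genes whose 8 bEV arrays do not overlap the controls, red bars are list medians, and vertical scatter within a row has no meaning. The interval of SMAD2, 0.19 to 0.62, does not reach 0, and TIMP4 at -0.61 lies lowest.

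Genes whose pattern over the 10 arrays was most like each of the 3 were found by Pearson's r among the 14884 genes, as a description only. For SMAD2 these were AGFG1 (r = 0.96), SGPL1 (0.95) and WWP1 (0.94), and 269 genes had an r of 0.8 or more. Part of this likeness was the step between bEV arrays and controls, most of all for WWP1. Over the 8 bEV arrays alone r was 0.93 for AGFG1, 0.82 for SGPL1 and 0.69 for WWP1. For SMAD3 the nearest were MAP4 (0.91), D2HGDH (0.91) and PWAR1 (0.90), and 30 genes reached 0.8. For MMP1 they were MPHOSPH8 (0.91), RAD51B (0.90) and LINC02992 (0.90), and 31 genes reached 0.8. No gene was among the 3 nearest of more than 1 of SMAD2, SMAD3 and MMP1.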

How the data were processed

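The log2 signals per probe set were deposited by the authors. Per the labels they were made with MAS5 (version not stated), and the methods name the GeneChip Command Console software. How arrays were normalized to each other is not stated in these sources. The 10 value columns were mapped to samples by title. Array quartiles were nearly equal, and values were used as deposited. The number of arrays limits the precision.

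Of 53617 probe sets, 37519 are unnamed here, and the brightest probe set stood for a gene. Genomic spans and symbols came from RefSeq (GRCh38.p14). The 8 bEV arrays were set against the 2 controls, and each bEV against both, with limma 3.58.1 (R 4.3.3, lmFit and eBayes), Benjamini-Hochberg adjusted over 14884 genes, and with exact two-sided permutation of the arrays. The fits were tested on simulated data with independent noise and planted changes larger than that of SMAD2, so smaller changes were not covered. A gene was counted past 1.5-fold as in the methods. Python 3.11.15, numpy 2.4.6 and pandas 2.3.3 did the rest.

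The 3 genes and the lists were chosen with earlier results of these data known. Genes named are the 3, fixed companions (SMAD4, SMAD7, TIMP1, CCN2 and others not analysed here), the 2 highest and 2 lowest of each list, and the 3 nearest patterns of each gene. Others named were chosen after their values were seen, and not every gene of the rule is printed. Alternatives were quantile normalization, median centring, mean of probe sets, every probe set named or not, a floor at the 10th percentile, eBayes with trend and robust, genes no dimmer than the median gene, 2-fold, each control alone and each array left out. The differences between 2 genes and the counts by genomic span were added after the data were examined.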

Additional observations from a re-analysis of the deposited data

Results flagged for a closer look

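Among the 8 bEV arrays of each of 49 genes (SMAD2, SMAD3, MMP1 and the list genes named by the rule), 7 genes had 1 array far from the other 7 by Dixon's criterion, which chance meets in about 1 of 20 groups. None was SMAD2, SMAD3 or MMP1. SMAD4 was at 8.22 with Lc. lactis, against 8.04 to 8.10 with the other bEVs. FOXH1, a DNA-binding partner of SMAD2, was at 4.54 with Lc. lactis, against 3.96 to 4.23 with the others, and the target gene IL11 was at 5.06 there, against 3.91 to 4.45. SKIL was at 6.88 with L. salivarius, against 7.12 to 7.23 with the others. LTBP3, which binds latent TGF-β, was at 5.63 with L. paracasei, against 5.25 to 5.41. NODAL was at 3.62 with L. acidophilus, against 2.87 to 3.21. P3H4 was at 6.38 with L. fermentum, against 6.66 to 6.86.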

How the results depend on the processing

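SMAD2 was higher with bEVs under all 17 alternatives, by 0.32 to 0.49 on the log2 scale, with adjusted p-values of 0.122 to 0.53 in limma. SMAD3 was at 0.03 to 0.09 under 16. MMP1 was at -0.23 to -0.03 under 15, and at 0.08 without control 2. The median signal filter leaves SMAD3 and MMP1 out. The number of genes called by limma, 0, was 4 probe sets over all probe sets and ran from 0 to 2 with arrays left out (2 without control 2, ZNF808 and MIR4536-1). The count of gene and bEV pairs at 1.5-fold was 0 under all 7 alternatives. Of 108 list genes, 4 changed sign with the scaling, none over 0.02 in size, and 37 with the scaling or a control left out. List medians moved by more than their spread over bEVs in 6 of 64 cases, among them the TGF-β target genes, at 0.14 over genes no dimmer than the median gene. No paired analysis was possible because only the controls carry a number and each bEV has 1 array. With 2 controls and dim probe sets for SMAD3 and MMP1, small changes are out of reach.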
